A study of Rattus norvegicus with 20 samples.

Results

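Acetylated histone H3 (H3ac) was set against acetylated histone H4 (H4ac) at each gene of the left ventricle of a failed and a normal Dahl rat heart. The comparison used 4 of the 20 arrays of the series, namely the H3ac array and the H4ac array of each heart, chosen by their labelled antibody. Both arrays of a heart would be set against the same pre-IP array, which cancels in their difference, and the 2 hearts give 2 pairs. Of 14217 genes measured, 7056 passed a filter on their mean level over the 4 arrays and are called tested genes. The failed heart is labelled as congestive heart failure, with a high-sodium diet named for its mRNA sample. Dahl rats are lines bred for how their blood pressure responds to dietary salt. An age of 19 weeks is given for the failed H3ac, the failed H4ac and the normal H3ac sample, and none for the normal H4ac sample. Per the design text, a single specimen of left ventricle served each experiment, and there was 1 array per antibody and heart. The normal H4ac array is acetylated H4 by its title, description and protocol, whereas its source field names pre-IP genomic DNA; it was used as H4ac. Its log2 values had a correlation of 0.934 with the failed H4ac array and of 0.821 with the normal pre-IP array, over 31099 probe sets.

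Acetylation of lysines on the tails of H3 and H4 is written by acetyltransferases such as p300, CBP and PCAF, removed by histone deacetylases and sirtuins, and read by bromodomain proteins. Both marks are known from active promoters and enhancers, and the enzymes differ in the histone they prefer. In heart muscle, deacetylases of class II are known to bind MEF2 factors and to restrain hypertrophic genes.

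The arrays were Affymetrix Rat Genome 230 2.0 expression arrays, hybridised with amplified chromatin DNA. A value therefore describes DNA under probes designed for a transcript, mostly toward its end. The distance of the probes to the promoter was not measured, so whether a value includes promoter DNA is not known. Each array was scaled to a median of 100, values under 10 were set to 10, and log2 was taken. These scaled intensities are given first below, and a difference is H3ac minus H4ac on the log2 scale, so that a positive value means relatively more H3ac. Scaling sets the 2 arrays of a heart to the same centre. In the deposited values the log2 ratio of the array medians, H3ac over H4ac, was -0.175 in the failed heart and -0.081 in the normal heart, so every difference is relative to the array's middle and not an absolute ratio of the marks. By their descriptions the mRNA samples are left ventricular myocytes, whereas the chromatin samples are of a Dahl rat with a normal or a failed heart. On the mRNA arrays, the 5 measured cardiac muscle markers lay at or above the 99.0 percentile of genes in both hearts. Markers of fibroblasts (11 of 11 measured), endothelium (11 of 12) and macrophages and leukocytes (10 of 10) were also above the floor. The adipocyte marker Cidec was at the floor in both hearts, and the skeletal muscle marker Myh4 in the failed heart. Only some markers of these 2 types were high. The highest adipocyte marker lay at percentile 97.1 in the failed and 98.8 in the normal heart, against a median of 20.25 and 26.2. The highest skeletal muscle marker lay at 99.85 in the failed and 99.98 in the normal heart, against a median of 36.1 and 29.2. The skeletal muscle marker Myh1 was also bright on the pre-IP arrays, at 35002 in the failed and 38423 in the normal heart. Summed scaled mRNA was 70482 in the failed and 41793 in the normal heart for the fibroblast markers, and 11261 and 3125 for the macrophage and leukocyte markers. In such tissue, fewer cells of a type and less signal per cell cannot be told apart.

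The promoters of the 3 genes at the head of each direction are shown because the marks are known from promoters. The probes were not designed for promoters. The sequences are 250 bases up to the transcription start, from RefSeq on build GRCr8, written 5′ to 3′ on the gene's strand with each CG dinucleotide in capitals. MGC116197, Stam2 and Maip1 had more H3ac than H4ac in both hearts. Herc3, Ctps1 and Tnip2 had less. The windows are chr9:3108760-3109009 (plus strand), chr3:57643916-57644165 (minus strand), chr9:66472909-66473158 (plus strand), chr4:89282195-89282444 (plus strand), chr5:139439383-139439632 (minus strand) and chr14:80452686-80452935 (plus strand).
MGC116197: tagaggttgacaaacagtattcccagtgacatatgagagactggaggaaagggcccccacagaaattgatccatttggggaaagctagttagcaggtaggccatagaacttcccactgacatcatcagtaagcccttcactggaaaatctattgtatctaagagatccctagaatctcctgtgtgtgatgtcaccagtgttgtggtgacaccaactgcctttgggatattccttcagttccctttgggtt
Stam2: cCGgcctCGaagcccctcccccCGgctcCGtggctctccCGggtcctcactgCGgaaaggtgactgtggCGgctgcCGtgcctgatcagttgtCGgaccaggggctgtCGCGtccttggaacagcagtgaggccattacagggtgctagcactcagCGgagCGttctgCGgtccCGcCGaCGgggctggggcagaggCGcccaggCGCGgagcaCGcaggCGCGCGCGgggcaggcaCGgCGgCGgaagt
Maip1: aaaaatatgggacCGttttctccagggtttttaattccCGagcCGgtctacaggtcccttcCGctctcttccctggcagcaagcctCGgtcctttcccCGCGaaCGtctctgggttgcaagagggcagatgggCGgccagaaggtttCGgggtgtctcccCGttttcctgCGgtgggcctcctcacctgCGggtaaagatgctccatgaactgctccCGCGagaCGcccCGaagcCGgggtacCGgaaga
Herc3: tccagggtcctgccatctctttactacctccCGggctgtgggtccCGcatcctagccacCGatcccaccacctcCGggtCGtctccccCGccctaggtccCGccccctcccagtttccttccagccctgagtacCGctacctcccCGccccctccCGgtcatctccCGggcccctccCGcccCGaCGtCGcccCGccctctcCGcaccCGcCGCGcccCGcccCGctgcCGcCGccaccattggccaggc
Ctps1: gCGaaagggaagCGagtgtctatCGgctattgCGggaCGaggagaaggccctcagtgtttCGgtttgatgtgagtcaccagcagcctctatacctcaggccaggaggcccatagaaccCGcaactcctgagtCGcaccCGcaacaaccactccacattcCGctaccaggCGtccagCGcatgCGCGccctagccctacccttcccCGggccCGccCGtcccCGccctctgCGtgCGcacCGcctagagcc
Tnip2: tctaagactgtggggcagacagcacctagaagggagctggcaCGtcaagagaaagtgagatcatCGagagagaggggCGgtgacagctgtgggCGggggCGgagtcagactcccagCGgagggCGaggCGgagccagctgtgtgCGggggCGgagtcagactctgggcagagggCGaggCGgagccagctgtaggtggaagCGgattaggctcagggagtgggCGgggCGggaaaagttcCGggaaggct
They hold 0, 28 and 19 CG in the order above for the 3 genes with more H3ac, against 24, 21 and 16 for the 3 with less. The median over the 5882 tested genes with a listed promoter was 16, and 92.5% of all 27457 listed promoters hold at least 1 CG. Stam2 and Herc3, at opposite ends of the comparison, both have CG-rich promoters. Across tested genes, the number of CG had a rho of 0.003 with the difference in the failed heart and of 0.035 in the normal heart (n = 5882, 83.4% of tested genes), so promoter CG content did not order the genes by H3ac against H4ac.

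Both acetylations gave similar profiles, and the difference between them recurred only in part from heart to heart. The H3ac and H4ac arrays had a log2 correlation of 0.908 in the failed heart and 0.913 in the normal heart over all probe sets. Between hearts the correlation was 0.918 for H3ac and 0.934 for H4ac, and the normal H3ac array had 0.925 with the failed H4ac array, above its value with the failed H3ac array. The SD of the difference over tested genes was 0.61 in the failed heart and 0.59 in the normal heart, about medians of 0.10 and 0.06. Across 7056 tested genes the differences of the 2 hearts, which share probe sets and no array, had r = 0.423 and rho = 0.417. The same measure was 0.610 for K4me3 minus K4me2 (7072 genes) and 0.516 for K9me3 minus K9me2 (7105 genes). The sign was the same in both hearts at 4561 genes (64.6%).

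H3ac exceeded H4ac at least 2-fold at 518 tested genes in the failed heart and at 306 in the normal heart. It was at least 2-fold below H4ac at 213 genes in the failed heart and at 302 in the normal heart. At 82 genes (1.16% of tested genes) it was 2-fold higher in both hearts and at 46 genes (0.652%) 2-fold lower in both. These 128 genes (1.81% of tested genes) are 17.5% of the 731 genes past 2-fold in the failed heart and 21.1% of the 608 in the normal heart. With the values as deposited, not rescaled, 43 genes were 2-fold higher and 81 lower, and with quantile normalization 67 and 50, so the balance of the 2 directions follows the scaling. Opposite calls were made at 4 genes: Cym, Grm8 and Ccl3 had more H3ac in the failed heart and less in the normal heart, and Gne the reverse.

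**Figure D1:**
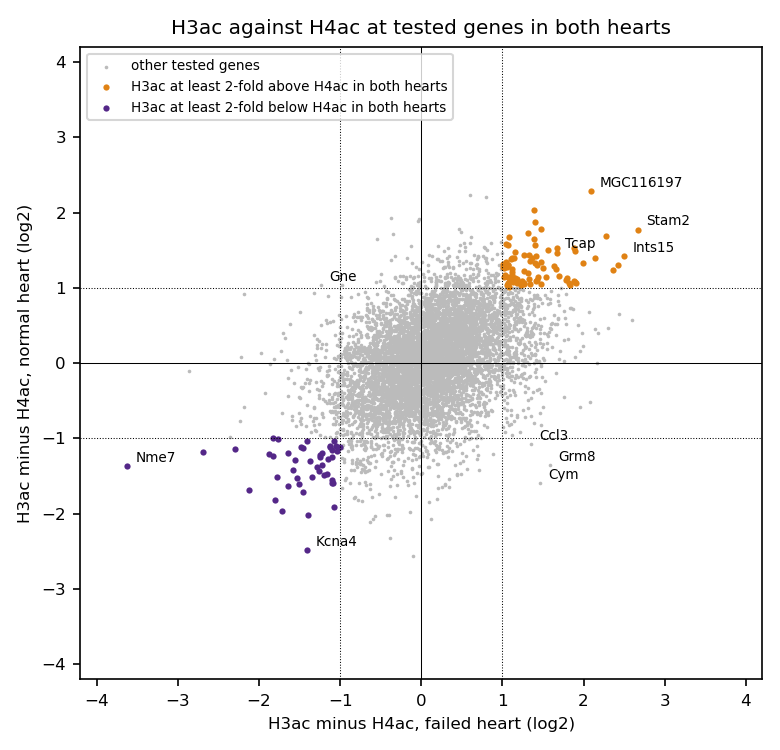
Difference between H3ac and H4ac (log2) in the failed heart (horizontal) and the normal heart (vertical) for 7056 tested genes, each point 1 gene. Orange points are the 82 genes with H3ac at least 2-fold above H4ac in both hearts, purple points the 46 genes at least 2-fold below, and dotted lines mark 2-fold; the cloud has r = 0.423.

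The limma test with the heart as a block called 255 genes higher for H3ac (3.61% of tested genes) and 150 lower (2.13%) at an adjusted p below 0.05, after Benjamini-Hochberg adjustment over 7056 genes. All 128 genes past 2-fold in both hearts were among the 405 called (5.74%). With 2 pairs the test has 1 residual degree of freedom, and its estimated prior gave all genes the same standard error of 0.32, so a call means a mean difference of 0.96 or more in size and not closeness of the hearts. Without the level filter or without the heart block it called 0 genes, with 1733 and 876 genes at an unadjusted p below 0.05; with the values as deposited it called 17 higher and 37 lower, with quantile normalization 149 and 153, and with a prior that follows the level 429 and 184. The results below therefore rest on the size of the difference in each heart.

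The 15 genes highest for H3ac relative to H4ac were ranked by the smaller of their 2 differences. Stam2, an endosomal sorting adaptor of the ESCRT machinery, had H3ac at 473 in the failed and 220 in the normal heart, against H4ac at 74.3 and 64.4. The differences were 2.67 in the failed and 1.77 in the normal heart (adjusted p = 2.1e-08, limma). Maip1, a mitochondrial matrix protein that acts with the AAA protease, had H3ac at 361 in the failed and 293 in the normal heart, against H4ac at 74.8 and 91.3. For both genes each H3ac value lay above both H4ac values. MGC116197, a gene without an assigned role, had H3ac at 275 in the failed and 209 in the normal heart, against H4ac at 64.3 and 42.8, with the highest value of the smaller difference (2.10 in the failed and 2.29 in the normal heart, adjusted p = 2.6e-08). Gak, a kinase that helps uncoat clathrin vesicles, showed differences of 1.56 in the failed and 1.5 in the normal heart.

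Tcap, Pfn1, Rhob and Tbcc, genes of the sarcomere and the cytoskeleton, were among the 15. Tcap, the titin cap protein of the Z-disc, had H3ac at 470 in the failed and 412 in the normal heart, against H4ac at 148 and 149 (differences 1.67 and 1.47, adjusted p = 0.0003). Pfn1, profilin of the actin cytoskeleton, had the brightest values, with H3ac at 1618 in the failed and 1112 in the normal heart and H4ac at 605 and 413. Rhob, a small GTPase, had H3ac at 366 in the failed and 271 in the normal heart, against H4ac at 139 and 91.1. In all 3 genes both H3ac values lay above both H4ac values. Tbcc, a tubulin folding cofactor, had differences of 1.47 in the failed and 1.79 in the normal heart.

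Genes of transcription and signalling were there too. Nkx2-3, a homeobox factor known from gut and spleen, had H3ac at 390 in the failed and 302 in the normal heart, against H4ac at 123 and 104, while its mRNA was at the floor of 10 in both hearts. Ints15, an Integrator subunit, had H3ac at 1301 in the failed and 338 in the normal heart, against H4ac at 231 and 126. Nkx2-3 and Tcap, at opposite ends of the mRNA scale (Tcap mRNA was 22680 in the failed and 8923 in the normal heart), thus had differences of similar size. Pde4a, which degrades cyclic AMP, Mif4gd, Mospd3, the kallikrein Klk1b3 and the brain cholesterol hydroxylase Cyp46a1 had smaller differences between 1.39 and 1.53 in one heart and larger ones, up to 2.14, in the other. Klk1b3 belongs to a family of near-identical kallikrein genes, so its probes may share signal with relatives. The mean difference of the 15 genes ran between 1.42 and 2.22, with adjusted p between 2.1e-08 and 0.0013.

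The 15 genes with the most H4ac relative to H3ac included the channel and transporter genes Slc8a1, Kcna4, Slco2a1 and Unc80. Slc8a1, the cardiac sodium-calcium exchanger, had H3ac at 53.6 in the failed and 67.2 in the normal heart, against H4ac at 147 and 221 (differences -1.46 and -1.71, adjusted p = 0.00024). Kcna4, the Kv1.4 potassium channel of the transient outward current, had H3ac at 61.6 in the failed and 65.3 in the normal heart, against H4ac at 163 and 365. Slco2a1, a prostaglandin transporter, had H3ac at 79.0 in the failed and 142 in the normal heart, against H4ac at 247 and 443. In each heart taken alone H3ac was the lower mark at all 3 genes, as the ranking that chose them required. Unc80, a subunit of the NALCN sodium leak channel, had differences of -1.51 in the failed and -1.60 in the normal heart, and its second probe set had a mean of -1.54.

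Several enzymes were also among these 15. Ctps1, CTP synthase, had H3ac at 56.8 in the failed and 53.9 in the normal heart, against H4ac at 187 and 211 (differences -1.72 and -1.97, adjusted p = 8.1e-06), but its other probe set had a mean difference of -0.03. Herc3, a HECT-type ubiquitin ligase, had H3ac at 44.8 in the failed and 109 in the normal heart, against H4ac at 157 and 383. Vldlr, the very low density lipoprotein receptor, had H3ac at 99.1 in the failed and 104 in the normal heart, against H4ac at 293 and 254, and its 3 other probe sets had means between -1.16 and -0.71. Vldlr and Unc80 thus kept the direction at every other probe set measured, although these were all below the level filter. Ctps1 did not show it at its second, which passed the filter. The other probe sets of Ammecr1l had means of -0.38 and 0.21, and that of Herc3 had -0.005 in the failed and -0.79 in the normal heart. Those of Slc8a1 and Slco2a1, also below the filter, had means of -1.12 and -0.96. Nme7, of the nucleoside diphosphate kinase family, had H3ac at 18.6 in the failed and 95.8 in the normal heart, against H4ac at 229 and 247, so its mean of -2.49 came mostly from the failed heart. Nceh1, a cholesterol ester hydrolase, and Agpat4, an acyltransferase of phospholipid synthesis, were also lower for H3ac, Nceh1 with -1.53 in each heart and Agpat4 with -1.38 in the failed and -1.30 in the normal heart. Tnip2, an inhibitor of NF-kB signalling, Vtcn1, an immune checkpoint ligand, Utp20 of the ribosome-building processome, the HMG-box gene Bbx and Ammecr1l completed the 15, whose means ran between -2.49 and -1.34 with adjusted p between 8.5e-11 and 0.0029.

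**Figure D2:**
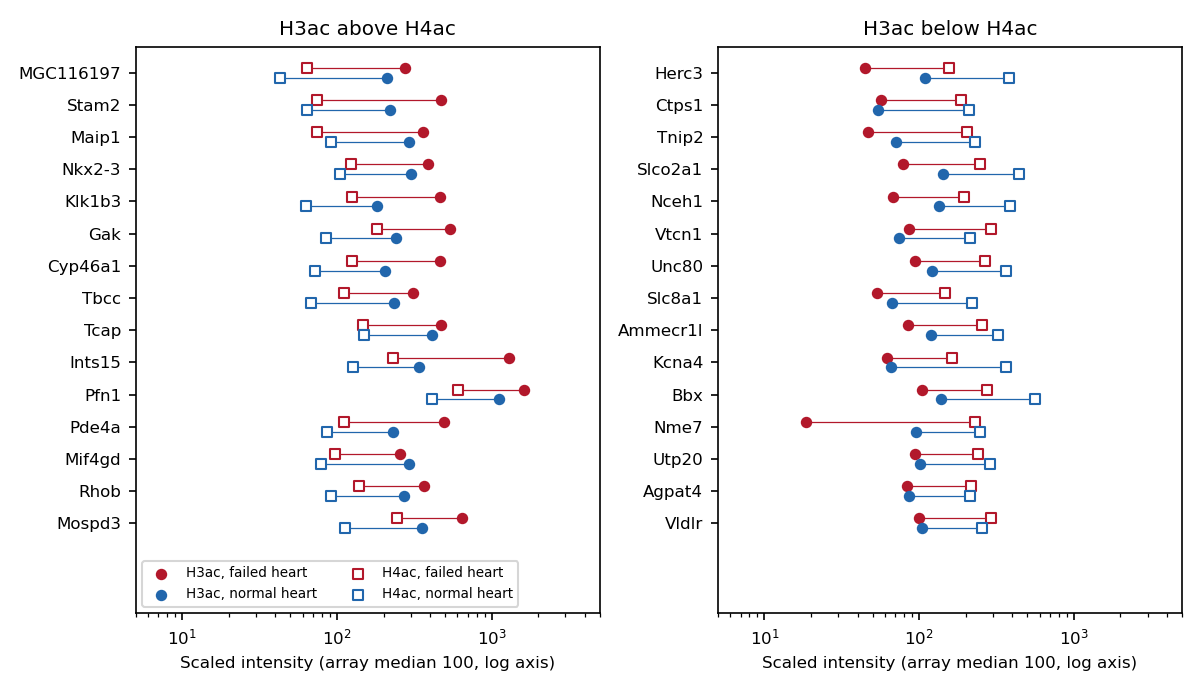
Scaled intensity (array median 100, log axis) of the 15 genes highest (left) and the 15 lowest (right) for H3ac relative to H4ac in both hearts; filled circles are H3ac, open squares H4ac, red the failed heart and blue the normal heart, and a line joins the 2 marks of a heart. By the ranking that chose them, H3ac lies right of H4ac in each heart for all 15 genes on the left. It lies left of H4ac for all 15 on the right. Nme7 has the widest gap, with H3ac at 18.6 and H4ac at 229 in the failed heart.

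How far a value recurs within a gene was read from the other probe sets of these 128 genes. Of 30 other probe sets at 26 genes with more H3ac, 20 had a positive difference in both hearts and 2 a negative one, with medians of 0.36 in the failed and 0.37 in the normal heart. Of 30 at 20 genes with less H3ac, 16 were negative in both hearts and 3 positive, with medians of -0.31 and -0.37. Among those past the level filter, 15 of 20 at the genes with more H3ac were positive in both hearts and 1 negative (medians 0.48 in the failed and 0.38 in the normal heart), and 6 of 15 at the genes with less were negative and 2 positive (medians -0.12 in each heart). These values are smaller than those that chose the genes. The 1996 genes with 2 probe sets past the filter were used to compare the difference at both. Its correlation between them was 0.152 in the failed and 0.230 in the normal heart. The difference at a probe set thus carried little over to another of the same gene. Array noise and a local difference in the probed DNA cannot be told apart here. Near the 2-fold limit, Ccdc85b (1.08 in the failed and 1.01 in the normal heart) and Prrc1 (-1.83 and -1.0) were just inside, and Pltp (1.72 and 1.0) and Gstt2 (-2.35 and -0.99) just outside.

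Gene length was a property that the comparison did not use and that separated the 2 sets of genes. Genes 2-fold higher for H3ac in both hearts had a median length of 8579.5 bp, genes 2-fold lower 56106.5 bp, and all tested genes 17278 bp (lengths from the RefSeq GRCr8 annotation, available for 99.7% of tested genes). Among the longest named genes were Slc8a1 (324207 bp), Bbx (247667 bp) and Unc80 (178232 bp), all with more H4ac, and among the shortest Tcap (1169 bp), Tbcc (1189 bp) and Rhob (2175 bp), all with more H3ac. Across 7032 genes the difference had a rho with length of -0.206 in the failed and -0.254 in the normal heart. Single genes went against this order. H2bc1, with 470 bp the shortest gene named here, had less H3ac in both hearts, and Grm8, with 925705 bp the longest, had a mean difference of 0.11. The genes are not independent, and these rho values describe the arrays only.

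Sorted into 10 equal groups (deciles) by length, the shortest genes (median 2035 bp) had a median difference of 0.37 in the failed and 0.37 in the normal heart. The longest decile (median 150059.5 bp) had -0.06 in the failed and -0.22 in the normal heart. In the shortest decile 61.8% of genes had a positive difference in both hearts and 10.9% a negative one, while in the longest decile 22.4% were positive and 42.2% negative, against 37.7% and 27% of all tested genes. The limma test called 48 genes higher and 3 lower among the 704 shortest, and 8 higher and 40 lower among the 704 longest. The slope was steeper for H3ac than for H4ac. H3ac over pre-IP had a rho with length of -0.239 in the failed and -0.254 in the normal heart, whereas H4ac over pre-IP had -0.084 and -0.101. Without pre-IP the values were -0.262 and -0.269 for H3ac and -0.161 and -0.128 for H4ac, in the failed and the normal heart, so the gap between the marks was narrower. K4me2 over pre-IP, a mark measured on other arrays, had -0.349 in the failed and -0.270 in the normal heart. The relation stayed negative within terciles of the acetylation level and of the pre-IP level in both hearts, between -0.160 and -0.364. How the probes of long and short genes lie relative to their promoters was not used here, and its part in the relation was not tested.

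**Figure D3:**
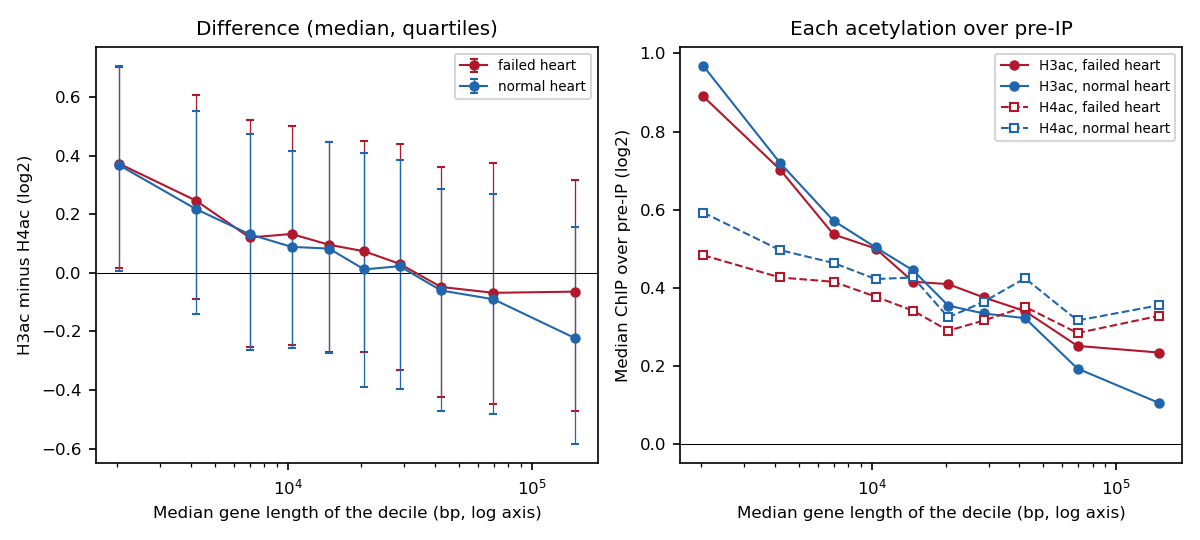
Tested genes in deciles by gene length (median of each decile in bp, log axis), failed heart in red and normal heart in blue. Left, median H3ac minus H4ac (log2) with bars over the middle 50% of genes, which goes from 0.37 in the shortest decile of both hearts to -0.06 (failed) and -0.22 (normal) in the longest; right, median H3ac (filled circles) and H4ac (open squares) over pre-IP, where H3ac falls off more steeply with length.

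Medians also differed by chromosome, as did gene length. Chromosome 10, whose tested genes had a median length of 13422 bp, had a median difference of 0.18 in the failed and 0.21 in the normal heart (745 genes). Chromosome 18, with a median length of 31052 bp, had -0.15 in the failed and -0.21 in the normal heart (138 genes).

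Developmental transcription factors were the list, among those of 15 or more measured genes, with the most H3ac relative to H4ac by the mean of both hearts' medians. A total of 44 gene lists, chosen with earlier results of these data known, were described by their medians over all measured members. Over all 14217 measured genes the median was 0.05 in the failed and 0.03 in the normal heart, with 33.5% of genes positive and 27.1% negative in both hearts. The 83 homeobox, Pax and Sox genes had medians of 0.75 in the failed and 0.38 in the normal heart, and 48 were positive in both hearts against 4 negative. Of the 31 that were tested, 5 were called higher (Nkx2-3, Lhx5, Hoxb3, Sox4 and Sox12, the last 3 named after their values were seen) and 0 lower, where all tested genes had 3.61% higher and 2.13% lower. Relative to genes of their own length decile the medians were 0.51 in the failed and 0.17 in the normal heart. Lhx5, a LIM-homeobox factor of the developing brain, had H3ac at 327 in the failed and 155 in the normal heart, against H4ac at 95 and 72.3 (adjusted p = 0.0011), and its other probe set had a mean of 0.14. Sox10, a neural crest factor, went against the family with differences of -0.23 in the failed and -0.58 in the normal heart (adjusted p = 0.51). Most of these genes are dim on the arrays, and with a floor of 50 the mean of the 2 medians was 0.15, against 0.57 with a floor of 10. Both acetylations were low here: H3ac over pre-IP had a median of -0.28 in the failed and -0.18 in the normal heart, and H4ac over pre-IP -0.95 and -0.75.

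Immediate early and stress response genes showed more H3ac, with both marks above pre-IP. The 28 measured genes had medians of 0.43 in the failed and 0.63 in the normal heart, 20 were positive in both hearts and 4 negative, and of 23 tested 3 were called higher (Klf2, Klf4 and Gadd45a, the last named after its values were seen) and 0 lower, beside 3.61% and 2.13% of all tested genes. H3ac over pre-IP had a median of 1.0 in the failed and 1.28 in the normal heart, and H4ac over pre-IP 0.44 and 0.64. All tested genes had 0.47 in the failed and 0.46 in the normal heart for H3ac, and 0.36 and 0.42 for H4ac. Tested genes of the second length decile (median 4197 bp) had 0.43 and 0.50 for H4ac, near the values of this list. Klf4, a Krüppel-like factor induced by stress, had H3ac at 264 in the failed and 235 in the normal heart, against H4ac at 110 and 101 (adjusted p = 0.007). Klf2, its relative known from endothelium under flow, had H3ac at 1301 in the failed and 800 in the normal heart, against H4ac at 444 and 438 (adjusted p = 0.0094). Both Krüppel-like factors had each H3ac value above each H4ac value. Egr3, a zinc finger factor, had differences of -0.92 in the failed and -0.90 in the normal heart (adjusted p = 0.067). These are short genes (median 3598.5 bp), and relative to genes of their own length decile the medians were 0.18 in the failed and 0.39 in the normal heart.

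Histone genes themselves also lay above the background. The 22 measured genes had medians of 0.35 in the failed and 0.52 in the normal heart, with 14 positive in both hearts and 4 negative. H2ax, the variant phosphorylated at DNA breaks, had H3ac at 1490 in the failed and 2308 in the normal heart, against H4ac at 778 and 1026 (adjusted p = 0.028). H1f10, a linker histone, had differences of 1.04 in the failed and 0.98 in the normal heart (adjusted p = 0.036). H2bc1, a testis H2B gene, lay at the other end, with H3ac at 67.5 in the failed and 218 in the normal heart against H4ac at 331 and 479 (adjusted p = 5.3e-05). Of 17 tested histone genes, 2 were called higher and 1 lower, beside 3.61% and 2.13% of all tested genes. The other probe set of H2ax had a mean of 0.27. Replication-type histone genes are near-identical copies, so their probes may share signal. Relative to their length decile the medians were 0.02 in the failed and 0.27 in the normal heart.

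Medians were also positive in both hearts for respiratory chain, ribosomal protein and Wnt genes. The 87 respiratory chain and ATP synthase genes had 0.25 in the failed and 0.17 in the normal heart. In both hearts 43 were positive and 17 negative. Relative to their length decile the medians were 0.06 in the failed and 0.02 in the normal heart. Of 78 tested, 3 were called higher and 0 lower, beside 3.61% and 2.13% of all tested genes. Ndufaf8, an assembly factor of complex I, had H3ac at 516 in the failed and 376 in the normal heart, against H4ac at 193 and 152 (adjusted p = 0.0024), while Ndufs4, a complex I subunit in a gene of 110495 bp, had differences of -0.94 in the failed and -0.94 in the normal heart (adjusted p = 0.056). Of the 48 cytosolic ribosomal protein genes 46 were tested and 0 called, beside 5.74% of all tested genes. The 48 had medians of 0.32 in the failed and 0.06 in the normal heart. Relative to their length decile these medians were 0.09 in the failed and -0.18 in the normal heart, and after quantile normalization the mean of the 2 medians turned to -0.112, against 0.189. The 26 Wnt and Frizzled genes (median length 20559 bp) had 0.41 in the failed and 0.21 in the normal heart, with 15 positive in both hearts and 3 negative; Wnt6, a secreted ligand, had differences of 0.96 in the failed and 1.30 in the normal heart (adjusted p = 0.017).

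Fatty acid oxidation and extracellular matrix genes lay on the H4ac side. The 27 genes of fatty acid oxidation had medians of -0.13 in the failed and -0.16 in the normal heart, with 4 positive and 12 negative in both hearts, and -0.21 in each heart relative to their length decile. Pdk4, the kinase that shuts off pyruvate dehydrogenase, had H3ac at 46.8 in the failed and 146 in the normal heart, against H4ac at 91.2 and 282 (differences -0.96 and -0.95, adjusted p = 0.052), and its other probe set had a mean of -0.12. Fabp3, the heart fatty acid binding protein, had the opposite order, with differences of 0.90 in the failed and 0.73 in the normal heart (adjusted p = 0.11). The 30 extracellular matrix genes had medians of -0.20 in the failed and -0.12 in the normal heart, with 5 positive and 11 negative; Spp1, osteopontin, had -0.48 in the failed and -0.66 in the normal heart (adjusted p = 0.29). In both families 0 tested genes were called, of 21 for fatty acid oxidation and 16 for extracellular matrix, beside 5.74% of all tested genes. Of the 44 lists, 19 had medians above that of all measured genes in both hearts and 7 below it in both.

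**Figure D4:**
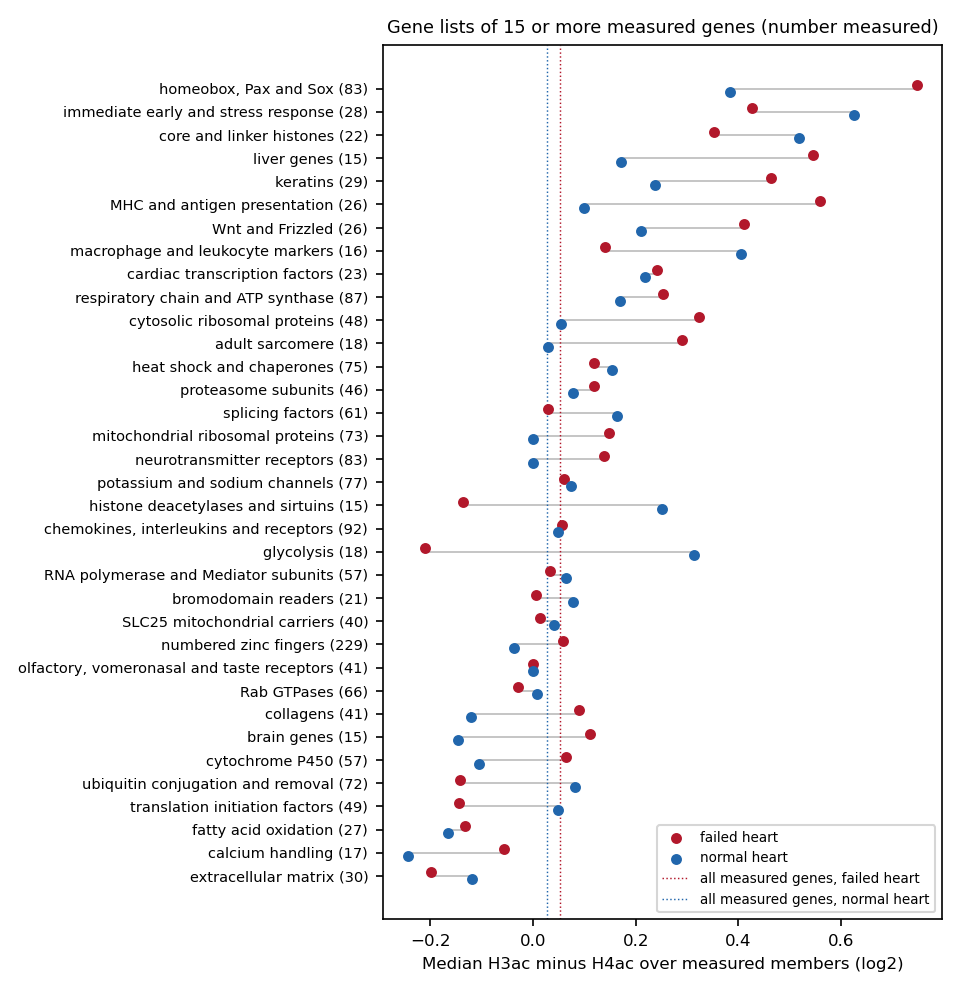
Median H3ac minus H4ac (log2) over the measured members of the 35 gene lists with 15 or more measured genes, failed heart in red and normal heart in blue, with the number of genes after each name; dotted lines are the medians of all 14217 genes. Homeobox, Pax and Sox genes lie highest at 0.75 (failed) and 0.38 (normal), and extracellular matrix and fatty acid oxidation genes are below 0 in both hearts.

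Heart muscle genes were called in both directions. Of 17 tested adult sarcomere genes 2 were called higher, Tcap and Myl3, and 3 lower, Myom2, Myoz2 and Ttn, beside 3.61% and 2.13% of all tested genes. Myl3, the ventricular essential light chain, had H3ac at 465 in the failed and 486 in the normal heart, against H4ac at 197 and 228 (adjusted p = 0.014). Myom2, an M-band protein, had H3ac at 88.4 in the failed and 116 in the normal heart, against H4ac at 196 and 281 (adjusted p = 0.0091). The short genes Tcap and Myl3 (6139 bp) thus stood on the H3ac side and the long gene Myom2 (72559 bp) on the H4ac side. Myoz2, a calcineurin-binding Z-disc protein, had a difference of -0.60 in the failed and -2.08 in the normal heart (adjusted p = 0.003). Ttn, the giant sarcomere protein titin, named after its values were seen, had differences of -0.97 in the failed and -1.13 in the normal heart (adjusted p = 0.028). Of 13 tested calcium handling genes 1 was called in each direction, Hrc, the histidine-rich calcium binding protein of the sarcoplasmic reticulum (3726 bp), with H3ac at 274 in the failed and 191 in the normal heart against H4ac at 68.9 and 76.4 (adjusted p = 0.0001), and Slc8a1 at the other end. Among cardiac transcription factors, 11 of 23 were positive and 7 negative in both hearts, and Hand2, Srf and Gata6 were called higher. Hand2, of the basic helix-loop-helix class, had differences of 1.12 in the failed and 1.17 in the normal heart (adjusted p = 0.015), Srf had 1.58 and 0.85 (adjusted p = 0.0086), and Gata6, named after its values were seen, 1.22 and 1.0 (adjusted p = 0.02). The other probe sets did not all follow: Srf had 2 others with means of -0.76 and 0.32, Gata6 1 with -0.73 and Hand2 1 with 0.51. Mef2c, the MEF2 factor, had -0.62 in the failed and -0.94 in the normal heart (adjusted p = 0.13).

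The enzymes and readers of acetylation had no common direction. Among 13 measured acetyltransferase genes 7 were positive and 3 negative in both hearts, among 15 deacetylase and sirtuin genes 4 and 4, and among 21 bromodomain genes 6 and 4. Over all measured genes 33.5% were positive and 27.1% negative in both hearts. Of the 6, 8 and 11 tested genes of these 3 lists, only Hdac5, a class II deacetylase, was called, beside 5.74% of all tested genes. Hdac5 had H3ac at 269 in the failed and 175 in the normal heart against H4ac at 97.8 and 96.8 (adjusted p = 0.014, limma). Its other probe set had a mean of 0.37. Kat2b, the acetyltransferase PCAF, had H3ac at 103 in the failed and 106 in the normal heart, against H4ac at 187 and 212 (adjusted p = 0.061), and its second probe set had a mean of -1.83.

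A set of 20 genes was followed whatever their values, mostly markers of heart failure and acetylation enzymes. Of these, 15 were tested and 0 called, beside 5.74% of all tested genes. In both hearts 11 were positive and 4 negative, beside 33.5% and 27.1% of all measured genes. The other 5 were of opposite sign. Nppa, atrial natriuretic peptide, had 24294 mRNA units in the failed and 1231 in the normal heart, while its H3ac was 238 in the failed and 224 in the normal heart and its H4ac 156 and 208 (differences 0.61 and 0.10, adjusted p = 0.57). Myh7, the beta myosin heavy chain, had differences of -0.05 in the failed and 1.04 in the normal heart (adjusted p = 0.39). Junb, an AP-1 factor, had differences of -0.03 in the failed and 1.91 in the normal heart (adjusted p = 0.056), its H4ac being 1119 in the failed and 496 in the normal heart. For Myh7 and Junb the normal heart alone passed 2-fold. Ier3, an early response gene, was above 0 in both hearts with differences of 0.67 in the failed and 1.01 in the normal heart (adjusted p = 0.097).

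The difference between the marks had little relation to the mRNA level of the same heart. Over all 14217 measured genes, H3ac over pre-IP had a rho with mRNA of 0.136 in the failed and 0.163 in the normal heart, and H4ac over pre-IP one of 0.232 and 0.195. The difference itself had -0.108 in the failed and -0.020 in the normal heart. Over the 7056 tested genes, the difference had -0.060 in the failed and -0.007 in the normal heart. H3ac over pre-IP had -0.056 and -0.022, and H4ac over pre-IP -0.011 and -0.023, so the positive relation over pre-IP was not seen among them. Without pre-IP, H3ac had 0.022 in the failed and 0.110 in the normal heart, and H4ac 0.078 and 0.117. The filter that chose the tested genes was on acetylation level, which narrows its range. In the failed heart the decile of genes with the lowest mRNA had a median difference of 0.14 and the decile with the highest one of -0.02, and the share of genes past 2-fold for H3ac was 15.7% and 5.70%. In the normal heart the same deciles had medians of 0.00 and 0.01 and shares of 8.23% and 4.29%. The share past 2-fold for H4ac was 5.91% and 5.98% in the failed heart, and 8.51% and 6.05% in the normal heart. At low mRNA the normal heart thus had larger shares in both directions. These deciles include genes below the level filter, and the lowest had a median log2 mRNA of 3.322, the floor, in both hearts. The failed heart thus showed a slope of the median with mRNA that the normal heart did not; whether the slopes differ beyond array error cannot be tested with 1 array each. The difference also had a rho with the pre-IP level of 0.072 in the failed and -0.076 in the normal heart, with opposite signs, and the part of input DNA in the mRNA relation was not tested.

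**Figure D5:**
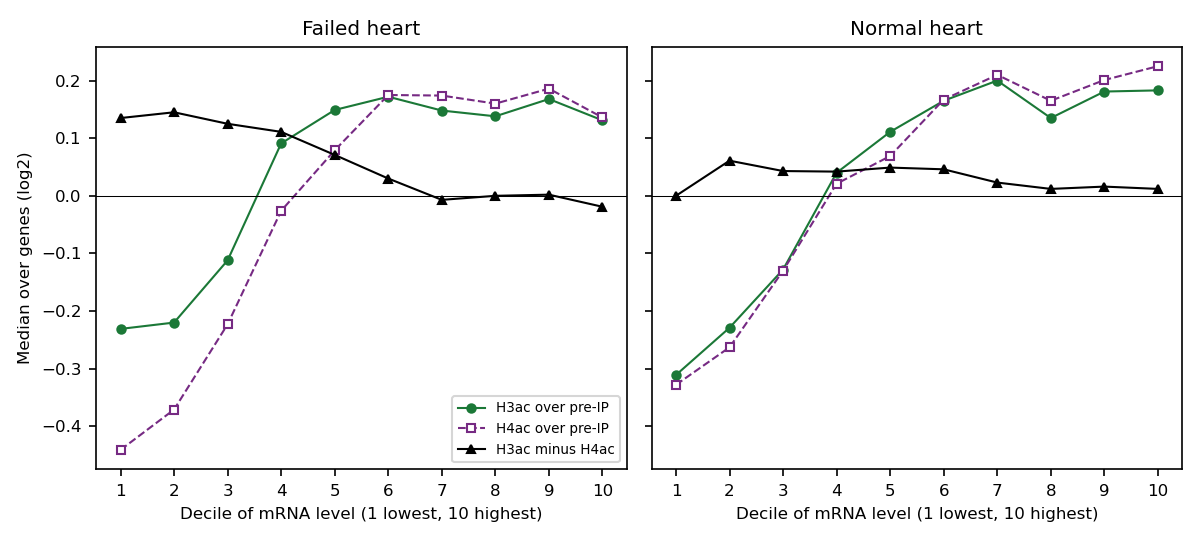
All measured genes in deciles by mRNA level of the same heart (1 lowest, 10 highest), failed heart left and normal heart right; green circles are the median H3ac over pre-IP, purple squares the median H4ac over pre-IP and black triangles the median H3ac minus H4ac (log2). Both marks climb over the lower deciles, and the difference goes from 0.14 to -0.02 in the failed heart and stays between 0.00 and 0.06 in the normal heart.

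The genes past 2-fold were also set against mRNA. Of the 82 genes with more H3ac, 68.3% had mRNA at or above the array median in the failed heart and 68.3% in the normal heart. Of the 46 with less, 71.7% did so in the failed and 69.6% in the normal heart, against 75.5% and 74.6% of all tested genes. The failed minus normal change of the difference had a rho of -0.010 with the failed minus normal change of mRNA over 7056 genes.

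Other histone marks at the same genes came from arrays that the comparison did not use. K4me3 over pre-IP had a median of 0.84 in the failed and 0.65 in the normal heart at the 82 genes with more H3ac, of -0.22 and -0.35 at the 46 genes with less, and of -0.02 and 0.06 at all tested genes. Methylation of lysine 4 of H3 is known from active promoters, although the labels do not name the histone. K27me2 over pre-IP went the other way, at -0.40 in the failed and -0.37 in the normal heart for the genes with more H3ac. It was 0.58 and 0.37 for those with less, against -0.11 and -0.14 for all. K9me2 over pre-IP was above all tested genes (-0.27 in the failed and -0.34 in the normal heart) in both sets. It was 0.24 and 0.06 for the genes with more H3ac, and 0.22 and -0.05 for those with less. K9me3 over pre-IP was 0.26 in the failed and -0.16 in the normal heart for the genes with more H3ac. It was -0.01 and 0.27 for those with less, against -0.12 and -0.05 for all. Across 7056 genes the difference had a rho with K4me3 over pre-IP of 0.325 in the failed and 0.343 in the normal heart, and with the K4me3 of the other heart of 0.140 and 0.134. For K4me2 it was 0.112 in the failed and 0.396 in the normal heart, and for K27me2 -0.115 and -0.203. For K9me2 the rho was 0.061 in the failed and -0.092 in the normal heart. For K9me3 it was 0.070 and -0.146, so the rho of the K9 marks had no common sign. For K20me3 it was -0.080 in the failed and -0.178 in the normal heart, and without pre-IP 0.032 and -0.265. These values depend on the pre-IP array in part: without it K27me2 had -0.014 in the failed and -0.302 in the normal heart, and K4me3 0.329 and 0.097.

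The largest gaps between the hearts concerned few genes. Cym, a gastric protease gene, had H3ac at 282 in the failed and 80.2 in the normal heart, against H4ac at 102 and 241 (differences 1.47 and -1.59). Grm8, a glutamate receptor, had H3ac at 818 in the failed and 200 in the normal heart, against H4ac at 273 and 513. At Cym and Grm8 the failed heart had the higher H3ac and the lower H4ac value. Bcl3, a co-regulator of NF-kB, had differences of -2.86 in the failed and -0.11 in the normal heart (adjusted p = 0.00068), with H3ac at 20.8 in the failed heart, and its 2 other probe sets had means of 0.17 and 0.69. Wdr4 had -2.19 in the failed and 0.92 in the normal heart, and Asphd1 2.09 in the failed and -0.51 in the normal heart. C7h8orf82 had -2.22 in the failed and 0.08 in the normal heart. For 1 array per mark and heart no test of such a gap was possible.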

How the data were processed

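H3ac, H4ac, 6 methylation marks, pre-IP DNA and mRNA were measured on 20 arrays, 10 per heart. The authors deposited intensity on a linear scale, 1 value per probe set and array (31099 probe sets, 57 of them controls); what tool summarised them is not given in the sources used. Per the labels' protocols, chromatin DNA was amplified and hybridised to expression arrays. Arrays give no counts, so their number limits the precision.

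Each array was scaled to a median of 100, floored at 10 and put on the log2 scale. By GEO's platform annotation, which can be old, 20826 probe sets had 1 gene, 436 several and 9780 were not listed; only the first kind was used, and 20758 of these matched the RefSeq gene table of build GRCr8, with 0 renamed. A gene took its probe set of highest mean mRNA (14217 genes, 4525 with 2 or more probe sets). Tested genes had a mean log2 level over the 4 acetylation arrays of at least 6.63, the median over all probe sets. Gene length is that of the GRCr8 gene record.

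The main test was limma 3.58.1 (R 4.3.3), lmFit and eBayes on H3ac minus H4ac with the heart as a block, and Benjamini-Hochberg adjustment; its residual also holds any difference between the hearts' conditions. The hearts are the only replicates, and they differ in condition. The test was tested on simulated data. Tables and figures used Python 3.11.15, pandas 2.3.3, SciPy 1.17.1 and Matplotlib 3.10.9. Alternatives were scaling, floor, level filter, probe set choice, heart block and prior; those on gene length were added after seeing the data. Members and gene lists were chosen with earlier results of these data known.

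Named genes are the 15 highest and 15 lowest by the smaller of the 2 hearts' differences (no value at the floor), 20 preset genes, up to 2 members at each end of a list, the 3 genes each way whose hearts differ the most, and the genes nearest 2-fold; others are said to be chosen after their values were seen.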

Additional observations from a re-analysis of the deposited data

Results flagged for a closer look

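At 4 tested genes the H3ac minus H4ac difference passed 2-fold in opposite directions in the 2 hearts. The failed minus normal value of that difference was 3.058 at Cym, 2.940 at Grm8, 2.431 at Ccl3 and -2.269 at Gne. With 1 array per mark and heart these gaps were not tested. Ccl3, a chemokine of macrophages, had H3ac at 322 in the failed and 54.5 in the normal heart, against H4ac at 126 and 115. Gne, an enzyme of sialic acid synthesis, had H3ac at 191 in the failed and 319 in the normal heart, against H4ac at 448 and 155. The pre-IP level of Ccl3 was 80.1 in the failed and 21.8 in the normal heart, and its part in the gap was not tested.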

How the results depend on the processing

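The limma counts depended on most settings: 17 genes higher and 37 lower with values as deposited, 149 higher with quantile normalization, 53 and 62 with the level filter on pre-IP, 70 and 33 with the mean over probe sets, 429 higher with an eBayes trend, and 0 and 0 both without a level filter and with no replicate block (the hearts not paired). Of the 302 genes called after quantile normalization, 285 were among the 405 of the main setting, and all 54 called as deposited were. Each of the 30 named genes at the ends lost its call without the level filter and without the block, where the adjusted p reached 0.41. Genes past 2-fold in both hearts numbered 43 higher and 81 lower as deposited, 246 and 220 without a level filter, 73 lower with the pre-IP filter and 29 lower with the mean over probe sets. With 1 heart alone, leaving out the other, between 306 and 518 were higher and between 213 and 302 lower. The rho with gene length kept its sign, at -0.156 (failed) and -0.215 (normal) after quantile normalization, -0.160 and -0.179 in the lowest tercile of acetylation, -0.324 (normal) in the highest, -0.166 and -0.194 in the lowest tercile of pre-IP and -0.244 and -0.364 in the highest. The mean of the immediate early genes' 2 medians was 0.378 after quantile normalization and 0.284 relative to gene length, against 0.526, and that of homeobox, Pax and Sox genes 0.149 with a floor of 50, against 0.565. The causes were not tested. The ribosomal protein list turned to -0.112 after quantile normalization and to -0.045 relative to gene length, against 0.189. Dim probe sets limit the families of low signal, and 1 array per mark and heart limits every value.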

Other observations

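Some lists differed in sign or size between the hearts, which was not tested. Glycolysis genes (18 measured) had medians of -0.21 in the failed and 0.31 in the normal heart, and MHC and antigen presentation genes (26) 0.56 and 0.10. The deacetylase and sirtuin genes had -0.14 in the failed and 0.25 in the normal heart.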
